A study of Mus musculus with 38 samples.

Results

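The promoters of the pyruvate dehydrogenase kinases and phosphatases were followed in the soleus muscle of young adult male C57BL/6J mice before, during and after fasting-induced torpor, together with those of the catalytic E1 subunits on which these enzymes act. Of 9 genes, *Pdk1*, *Pdk2*, *Pdk3*, *Pdk4*, *Pdp1*, *Pdp2*, *Pdpr*, *Pdha1* and *Pdhb*, 8 had exactly 1 promoter cluster, assigned to the gene when its highest peak fell no more than 500 bp from a GENCODE start of that gene and on its strand, so that 8 of the 10819 clusters in the deposited table are described here. *Pdk3* had no cluster and is reported as absent from the table. Each mouse gave 1 library of capped RNA 5′ ends by nAnT-iCAGE, a method without amplification in which each tag marks the start of an RNA and in which tags do not scale with the length of the transcript, so that levels can be set side by side between genes.

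In experiment #1, 28 libraries came from 6 groups. The 4 Pre mice were fed freely on day 1, the 8 Mid mice were sampled on day 2 after food was withdrawn to induce torpor, and the 4 Post mice had their food back on day 3. By the study's own account, Mid mice were either in torpor or between bouts of it when sampled, and the labels do not say which. The other groups were all taken on day 2, and were 4 HiT mice at high ambient temperature, 4 Fed mice that were fed normally, and 4 Dep mice that were kept out of torpor by touching. In experiment #2, 2 Pre, 5 Mid and 3 Post mice were sampled. The sources disagree on food in some groups. The series design gives the HiT mice food, and the condition label calls the Fed mice starved, whereas the methods of the study withdraw food from the HiT mice and leave it with the Fed mice. The description in the methods is used here, by which Mid, HiT and Dep are the fasted groups.

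The pyruvate dehydrogenase complex converts pyruvate to acetyl-CoA in mitochondria and so commits carbon from glucose to oxidation. The kinases switch it off by phosphorylating the α subunit of its E1 component, and the phosphatases switch it on again. In skeletal muscle, *Pdk4* is best known as the kinase induced in fasting, when muscle burns fatty acids and spares glucose, *Pdk2* is the widely expressed isoform, *Pdp1* codes for the calcium-sensitive phosphatase and *Pdp2* for the isoform known for its response to insulin.

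The *Pdk4* cluster lay on the minus strand at chr6:5495772-5496712 of mm10, with its peak 2 bp upstream of the annotated 5′ end, and the *Pdp2* cluster lay on the plus strand at chr8:104591375-104591576, with its peak 27 bp inside exon 1. The *Pdk2* peak was 9 bp inside its first exon, at chr11:95041012-95041524. The *Pdp1* cluster was at chr4:11966297-11966540 with its peak 8 bp inside the transcript, and the *Pdk1* cluster was at chr2:71873129-71873520 with its peak 4 bp upstream of a 5′ end. The *Pdpr* cluster was at chr8:111094526-111094828, with its peak on the 5′ end itself. The *Pdha1* cluster was at chrX:160138254-160138486 and the *Pdhb* cluster at chr14:8172763-8173162. The *Pdk4* cluster spanned 941 bp, against 202 to 513 bp in the other 7.

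RefSeq promoter sequences of GRCm38.p6, which hold the bases on either side of a gene's start, were found for 8 of the 9 genes, and those of 5 held the peak of the member's cluster. The sequences of *Pdk4* and *Pdp2*, which had the largest rises from Pre to Mid among the members, are shown with that of *Pdk2*, the kinase promoter with the highest mean level in Pre in both experiments. They run 5′ to 3′ from chr6:5496229-5496528 (minus strand), chr8:104591222-104591521 (plus strand) and chr11:95041322-95041621 (minus strand). A lone capital marks the base of the CAGE peak, and a run of capitals marks the E-box CACGTG.
Pdk4: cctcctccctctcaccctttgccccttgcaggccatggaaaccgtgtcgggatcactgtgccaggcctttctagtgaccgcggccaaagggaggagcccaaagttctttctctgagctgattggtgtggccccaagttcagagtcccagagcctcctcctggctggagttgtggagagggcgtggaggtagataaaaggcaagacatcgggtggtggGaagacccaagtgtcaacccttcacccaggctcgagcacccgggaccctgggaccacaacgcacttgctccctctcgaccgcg
Pdp2: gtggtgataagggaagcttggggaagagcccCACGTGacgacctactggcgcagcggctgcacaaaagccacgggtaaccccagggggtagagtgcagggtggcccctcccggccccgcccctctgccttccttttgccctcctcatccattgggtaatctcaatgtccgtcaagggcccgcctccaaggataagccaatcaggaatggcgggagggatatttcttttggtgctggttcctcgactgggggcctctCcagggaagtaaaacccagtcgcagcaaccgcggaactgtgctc
Pdk2: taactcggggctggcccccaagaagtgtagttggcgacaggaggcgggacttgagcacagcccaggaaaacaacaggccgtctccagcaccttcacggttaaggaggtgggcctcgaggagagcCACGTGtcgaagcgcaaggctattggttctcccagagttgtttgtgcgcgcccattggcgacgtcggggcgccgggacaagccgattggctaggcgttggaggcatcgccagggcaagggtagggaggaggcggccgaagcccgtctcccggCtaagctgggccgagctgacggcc
A set of 7 motifs was searched on both strands. The E-box was in the windows of *Pdp2*, *Pdk2* and *Pdpr*, where it began 225, 152 and 57 bases upstream of the peak, and in 7.15% of all 32851 promoters of the table. None of the 5 windows held the FOXO core TGTTTAC (3.65% of all promoters), the nuclear receptor half-site AGGTCA (16.3%), its extended form TCAAGGTCA (0.423%), its direct repeat DR1 (0.0396%), the glucocorticoid half-site TGTTCT (18.97%) or the TATA box TATAAA (13.6%). The half-site is contained in its extended form and in DR1, so these searches overlap. The 5 windows had a GC content of 60.7% to 76.7%, against a median of 52.7% over all promoters. With 5 windows, matches and their absence are not read as different from the background. Across 4768 windows that held a peak, a pyrimidine followed by a purine, the usual step at a start site, was most frequent with the purine 2 bases downstream of the deposited peak (78.0% of windows). With the purine at the deposited peak itself it was found in 22.8%. The marked bases and all distances from a peak follow the deposited position, and the reason for this offset is not given in the sources used here.

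Tags in clusters numbered 18257657 to 39176649 per library in experiment #1 and 9359994 to 20914855 in experiment #2. The members had between 72 and 180067 tags per library in experiment #1 and between 56 and 63924 in experiment #2, with the fewest at *Pdp2*. Levels below are TMM-normalised tags per 1000000 tags in clusters (TPM), which were scaled separately in each experiment, so that they are compared only within one. Of 7 markers of slow fibers, which are abundant in soleus, 6 were detected, with a summed level of 8419 to 13017.5 TPM in experiment #1. All 9 markers of fast fibers were detected, with a sum of 10922 to 16270 TPM in the same libraries. Sums of adipocyte markers (7 of 8 detected) ran from 160 in Mid 4 to 1917 in Dep 3. Those of red blood cell markers (5 of 6) were 13751 in Fed 2 and 1886 to 5134 in the other libraries. Those of neutrophil markers (4 of 5) were 132.6 in Dep 1 and 0.12 to 1.56 in the others. Their part in the levels of the members was not tested. The HiT libraries stood apart in their macrophage markers (5 of 6 detected, without *Adgre1*), which summed to 138 to 310.1 TPM there and to 40.4 to 93.6 in the other 24 libraries. Fold changes, standard errors and adjusted p-values are from edgeR's quasi-likelihood test with Benjamini-Hochberg adjustment over all clusters. In bulk muscle, fewer cells of a type and less RNA per cell cannot be told apart.

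*Pdk4* was 10.4-fold to 11.6-fold higher in the 3 fasted groups than in Pre, and fell again after refeeding. Its levels in the Pre libraries were 569.7, 297, 495 and 392 TPM. In the 8 Mid libraries they ran from 1717 over a median of 4903 to 5944, and in the Post libraries they were 228, 206, 273 and 201. The Mid libraries did not overlap with either group. From Pre to Mid the log2 fold change was 3.42 ± 0.29 (SE, adjusted p = 2.05e-08), a 10.7-fold rise, and from Mid to Post it was -4.37 ± 0.31 (adjusted p = 6.30e-10), a level 20.7-fold lower. The promoter ranked 267th of 10776 by mean level in Pre, 29th in Mid and 511th in Post.

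*Pdk4* also rose in the fasted mice that were kept from torpor. The HiT libraries had 5104, 3960.1, 4544 and 4594 TPM, and the Dep libraries had 4400.0, 5194, 5502 and 5306. Both groups lay inside the range of the Mid libraries, but 3 HiT and 1 Dep libraries were below the 4640.2 of the lowest Mid library other than Mid 6. The Mid group differed from HiT by a log2 fold change of 0.05, with a 95% interval from -0.43 to 0.53 (adjusted p = 0.898), and from Dep by -0.12, with an interval from -0.59 to 0.36 (adjusted p = 0.825). Without Mid 6 they were 0.19 (adjusted p = 0.452) and 0.00 (adjusted p = 0.996). The intervals do not show that the groups were equal. In the Fed libraries, which share day 2 with these groups, the levels were 259.6, 582, 654 and 274, all below every fasted library. From Fed to Mid the log2 fold change was 3.41 ± 0.29 (adjusted p = 3.97e-08), and from Pre to Fed it was 0.01 with an interval from -0.54 to 0.57.

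By group mean the order of *Pdk4* was therefore Dep (5101 ± 484, SD, n = 4), Mid (4703 ± 1276, n = 8), HiT (4551 ± 468, n = 4), Fed (442 ± 205, n = 4), Pre (438 ± 119, n = 4) and Post (227 ± 32.6, n = 4). Of the neighbours in this order, HiT and Fed differed beyond their spread, by a log2 fold change of 3.36 ± 0.31 (adjusted p = 1.21e-08), while Dep and Mid, Mid and HiT, and Fed and Pre did not. Pre and Post were not separated by the quasi-likelihood test, although their libraries did not overlap. The log2 fold change was -0.95 ± 0.29 with an adjusted p of 0.0974, whereas the likelihood ratio test of edgeR gave 0.0441 and DESeq2 gave 0.0263. From Post to Fed the log2 fold change was 0.96 ± 0.29 (adjusted p = 0.0189), but their libraries overlapped and the call was lost without Post 2, Fed 2 or Fed 3, where the log2 fold change was 0.92, 0.80 and 0.71.

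**Figure D1:**
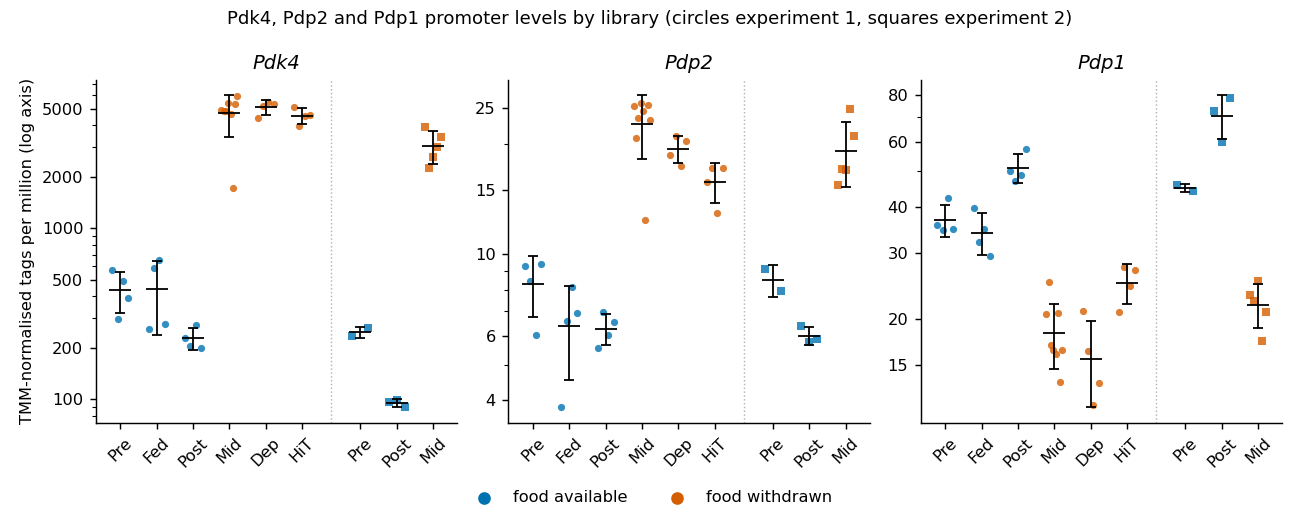
Levels of *Pdk4*, *Pdp2* and *Pdp1* in every library, in TMM-normalised TPM on log axes, by group, with circles for experiment #1 and squares for experiment #2. Bars give the mean and SD, and colors give food as in the methods of the study, with HiT as a fasted group. All fasted libraries lie above all fed ones in *Pdk4* and *Pdp2* and below them in *Pdp1* within each experiment, and Mid 6 is the low Mid point at 1717 TPM of *Pdk4* and 12.4 of *Pdp2*.

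In experiment #2 *Pdk4* changed in the same directions. It was at 233 and 260.4 TPM in the Pre libraries, at 3923, 2257, 2609.8, 2987 and 3419 in the Mid libraries and at 96.4, 99.7 and 90.1 in the Post libraries. None of the 3 groups overlapped. The log2 fold change was 3.62 ± 0.23 from Pre to Mid (adjusted p = 4.65e-05) and -4.99 ± 0.21 from Mid to Post (adjusted p = 1.16e-06). By the lane named in the labels, the Pre libraries shared lane 3 with Mid 9 to Mid 12, and the Post libraries shared lane 4 with Mid 13, at 3419 TPM, so that Mid was above the other group within each lane. The difference between experiments was 0.25 with an interval from -0.47 to 0.96 for Pre to Mid and -0.64 with an interval from -1.30 to 0.01 for Mid to Post. Post was lower than Pre here, by a log2 fold change of -1.37 ± 0.20 (adjusted p = 0.0354), but this call was lost when any of the 5 libraries was left out (adjusted p = 0.0875 to 0.2100). All Pre libraries were in lane 3 and all Post libraries in lane 4, so that lane could be estimated only through the Mid libraries, of which Mid 13 alone was in lane 4. With lane as a term the log2 fold change was -1.59 (adjusted p = 0.874). With all 38 libraries in a single fit with experiment as a term, Post was lower than Pre by -1.103 (adjusted p = 7.69e-04).

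The other kinase promoters had much smaller fold changes. *Pdk2* was at 467, 490.0, 452 and 514 TPM in Pre and ran from 447 over a median of 496 to 570.2 in Mid, with overlapping groups. Its log2 fold change from Pre to Mid was 0.06 with an interval from -0.08 to 0.20 (adjusted p = 0.580). *Pdk1*, the isoform known for its induction in hypoxia, was at 52.7, 57.6, 57.6 and 54.6 in Pre and at 58.2 to 68.5 in Mid, with a median of 62.6. These groups did not overlap and the change of 0.18 ± 0.07 just passed the threshold (adjusted p = 0.0486), but the call was lost without any one of Pre 1 to Pre 4, Mid 4, Mid 5, Mid 7 or Mid 8 (log2 fold change of 0.15 to 0.20, adjusted p = 0.0585 to 0.146). In experiment #2 the change of *Pdk1* was -0.14 ± 0.11 (adjusted p = 0.503).

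The phosphatase isoforms moved in opposite directions. *Pdp2* rose in fasting, from 9.29, 8.48, 6.04 and 9.43 TPM in Pre to between 12.4 and 25.9 in Mid, with a median of 24.1. It was back at 5.57, 6.98, 6.03 and 6.52 in Post, and was at 3.84, 6.57, 8.13 and 6.92 in Fed. Every Mid library was above every Pre, Post and Fed library. The log2 fold change was 1.45 ± 0.18 from Pre to Mid (adjusted p = 1.37e-06), a 2.72-fold rise, -1.85 ± 0.18 from Mid to Post (adjusted p = 2.90e-08) and 1.82 ± 0.18 from Fed to Mid (adjusted p = 7.89e-08).

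Among the fasted groups *Pdp2* was lower in HiT than in Mid. It was at 15.7, 17.2, 12.96 and 17.2 TPM in HiT and at 18.7, 20.99, 17.4 and 20.4 in Dep. The HiT libraries were all below those of Dep and overlapped with Mid only at Mid 6. From HiT to Mid the log2 fold change was 0.53 ± 0.17 (adjusted p = 0.0134), and without Mid 6 it was 0.64 (adjusted p = 6.61e-04). From HiT to Dep it was 0.30 ± 0.19 (adjusted p = 0.273), and from Dep to Mid 0.23 with an interval from -0.09 to 0.55 (adjusted p = 0.457). HiT was still above Pre, by 0.92 ± 0.19 (adjusted p = 5.90e-04).

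*Pdp1*, the main phosphatase promoter of fed muscle, moved the other way, down in fasting and up after refeeding. It was at 35.7, 34.6, 42.2 and 35.0 TPM in Pre and at 13.5 to 25.02 in Mid, with a median of 16.7. In Post it was at 50.1, 47.1, 48.8 and 57.5. The 3 groups did not overlap. The log2 fold change was -1.02 ± 0.14 from Pre to Mid (adjusted p = 3.90e-06), a level 2.02-fold lower, and 1.48 ± 0.13 from Mid to Post (adjusted p = 1.06e-08), a 2.79-fold rise. From Fed, at 39.8, 32.3, 34.9 and 29.5, to Mid it was -0.90 ± 0.14 (adjusted p = 1.42e-05).

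*Pdp1* also differed between HiT and the other fasted groups. It was at 20.8, 27.6, 24.5 and 27.1 TPM in HiT and at 20.9, 16.4, 11.7 and 13.4 in Dep. HiT lay mostly above the others, but overlapped with Mid and, at 1 library each, with Dep. The log2 fold change was -0.45 ± 0.14 from HiT to Mid (adjusted p = 0.0102) and -0.68 ± 0.16 from HiT to Dep (adjusted p = 0.00297). From Dep to Mid it was 0.22, with overlapping libraries, and did not pass the threshold. Without HiT 4, that from HiT to Mid was -0.38 (adjusted p = 0.0532). Post exceeded Pre by 0.46 ± 0.16, which did not pass the threshold (adjusted p = 0.158), and from Post to Fed it changed by -0.58 ± 0.16 (adjusted p = 0.0129).

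In experiment #2, *Pdp2* was at 9.13 and 7.93 TPM in Pre, at 15.5, 17.1, 16.96, 24.8 and 21.02 in Mid and at 6.38, 5.76 and 5.87 in Post. *Pdp1* was at 45.9 and 44.2 in Pre, at 23.2, 22.3, 25.3, 17.4 and 20.9 in Mid and at 72.6, 60.005 and 78.7 in Post. Neither gene had overlapping groups, and each direction matched that in experiment #1. From Pre to Mid the log2 fold change was 1.16 ± 0.19 for *Pdp2* (adjusted p = 0.00471) and -1.04 ± 0.14 for *Pdp1* (adjusted p = 0.00191). The call of *Pdp2* was lost without Pre 6 (1.07, adjusted p = 0.0649). From Mid to Post the log2 fold changes were -1.66 ± 0.16 and 1.69 ± 0.12 (adjusted p = 1.26e-04 and 1.93e-05).

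The make-up of the kinase and phosphatase tags differed between fed and fasted muscle. *Pdk4* gave 44.4 ± 7.83% of the summed kinase tags in Pre (SD, n = 4), 88.2 ± 5.10% in Mid (n = 8), 29.6 ± 3.21% in Post, 90.9 ± 0.931% in HiT, 90.7 ± 1.45% in Dep and 42.3 ± 12.6% in Fed (n = 4 each). *Pdk2* gave 49.9 ± 7.12% in Pre and 10.4 ± 4.56% in Mid. *Pdp2* gave 18.5 ± 4.05% of the summed *Pdp1* and *Pdp2* tags in Pre, 55.2 ± 9.25% in Mid, 55.9 ± 6.11% in Dep and 38.7 ± 3.47% in HiT. The minor phosphatase promoter of fed muscle thus gave the larger part of these tags in 6 of the 8 Mid libraries and in 3 of the 4 Dep libraries, and in none of the 4 HiT libraries. In experiment #2 it did so in only 2 of the 5 Mid libraries, Mid 12 and Mid 13, and the mean share in Mid was 46.5 ± 8.04%, against 15.9 ± 1.0003% in Pre (n = 2).

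The summed level of *Pdp1* and *Pdp2* was 45.2 ± 2.21 TPM in Pre, 40.9 ± 4.07 in Mid, 40.7 ± 4.36 in HiT, 40.5 ± 3.45 in Fed and 35.0 ± 4.62 in Dep, and 57.1 ± 4.62 in Post, in relative terms a narrower range than that of either gene. There were 21.6 ± 1.959 kinase tags per phosphatase tag in Pre, 128 ± 29.1 in Mid, 125 ± 23.6 in HiT, 164 ± 33.9 in Dep, 24.9 ± 4.24 in Fed and 13.5 ± 1.82 in Post. In experiment #2 the ratios were 14.4 ± 1.23, 87.5 ± 18.3 and 8.05 ± 1.64 in Pre, Mid and Post (n = 2, 5 and 3). These ratios are of promoter tags, with no test, and *Pdk4* gave most of the kinase tags in the fasted groups.

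**Figure D2:**
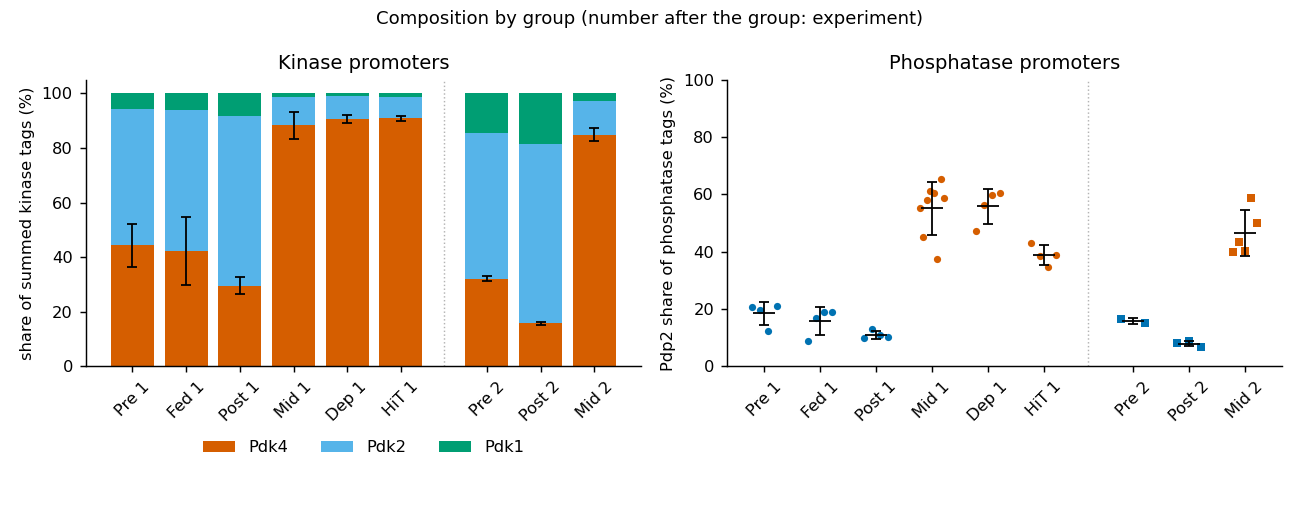
Mean share of the summed *Pdk1*, *Pdk2* and *Pdk4* tags from each promoter in percent (left, bars from 0, error bars the SD of the *Pdk4* share), and the *Pdp2* share of the summed *Pdp1* and *Pdp2* tags in each library (right, points with mean and SD), by group and experiment. The *Pdk4* share was 44.4% in Pre and 88.2% in Mid of experiment #1, and the *Pdp2* share was 18.5% and 55.2%.

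The regulatory subunit of the phosphatase and the E1 subunits did not pass the test between Pre, Mid and Post in either experiment, but were lower in HiT than in Pre and Mid. *Pdpr*, which codes for the regulatory subunit, was at 39.4, 37.6, 39.8 and 42.4 TPM in Pre, at 34.7 to 47.8 in Mid with a median of 40.2, and at 30.7, 27.2, 29.6 and 30.7 in HiT. *Pdha1*, the α subunit that carries the phosphorylation sites, was at 545, 568.1, 577 and 681 in Pre, at 579.6 to 698 in Mid with a median of 603, and at 463, 385, 449 and 449.9 in HiT. For both genes all HiT libraries were below all Pre and Mid libraries.

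*Pdhb*, the β subunit, was at 159, 164, 186 and 151 TPM in Pre, at 122 to 173 in Mid with a median of 165, and at 108, 115, 131 and 114 in HiT. HiT overlapped with Mid only at Mid 3. *Pdk2* was at 380.1, 359, 447 and 378 in HiT, with 1 library reaching the lowest Mid library. From Pre to HiT the log2 fold changes were -0.43 ± 0.09 for *Pdpr*, -0.44 ± 0.09 for *Pdha1*, -0.50 ± 0.09 for *Pdhb* and -0.30 ± 0.08 for *Pdk2* (adjusted p = 6.99e-04, 3.89e-04, 1.41e-04 and 0.00667). From HiT to Mid they were 0.45 ± 0.08, 0.49 ± 0.08, 0.45 ± 0.08 and 0.36 ± 0.07 (adjusted p = 8.40e-05, 2.00e-05, 8.49e-05 and 3.51e-04). From Pre to Mid none of the 4 passed, with log2 fold changes of 0.02, 0.05, -0.05 and 0.06. From Mid to Post *Pdpr* had -0.17 (adjusted p = 0.0975) and was called without Mid 1 (-0.20, adjusted p = 0.0491), and *Pdha1* had -0.12 (adjusted p = 0.222) and was called with all 38 libraries in a single fit (-0.15, adjusted p = 0.0447).

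Other values moved with the HiT group. Beside the macrophage markers, which ran from 138 to 310.1 there, the 6 slow fiber markers summed to 8419 to 10614 TPM in HiT and to 11273 to 12042 in Pre, without overlap. In Mid they summed to 9325 to 12830 and in Fed to 8565 to 12730, both overlapping with HiT. The part of either in the lower levels of these 4 genes was not tested. *Pdk4* and *Pdp2* were higher in HiT than in Pre in the same libraries. In the Fed group *Pdha1* was at 507, 445, 538 and 504, all below every Pre and Mid library. Its log2 fold change was 0.30 ± 0.08 from Fed to Mid (adjusted p = 0.00401) and -0.25 ± 0.09 from Pre to Fed (adjusted p = 0.0645).

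**Figure D3:**
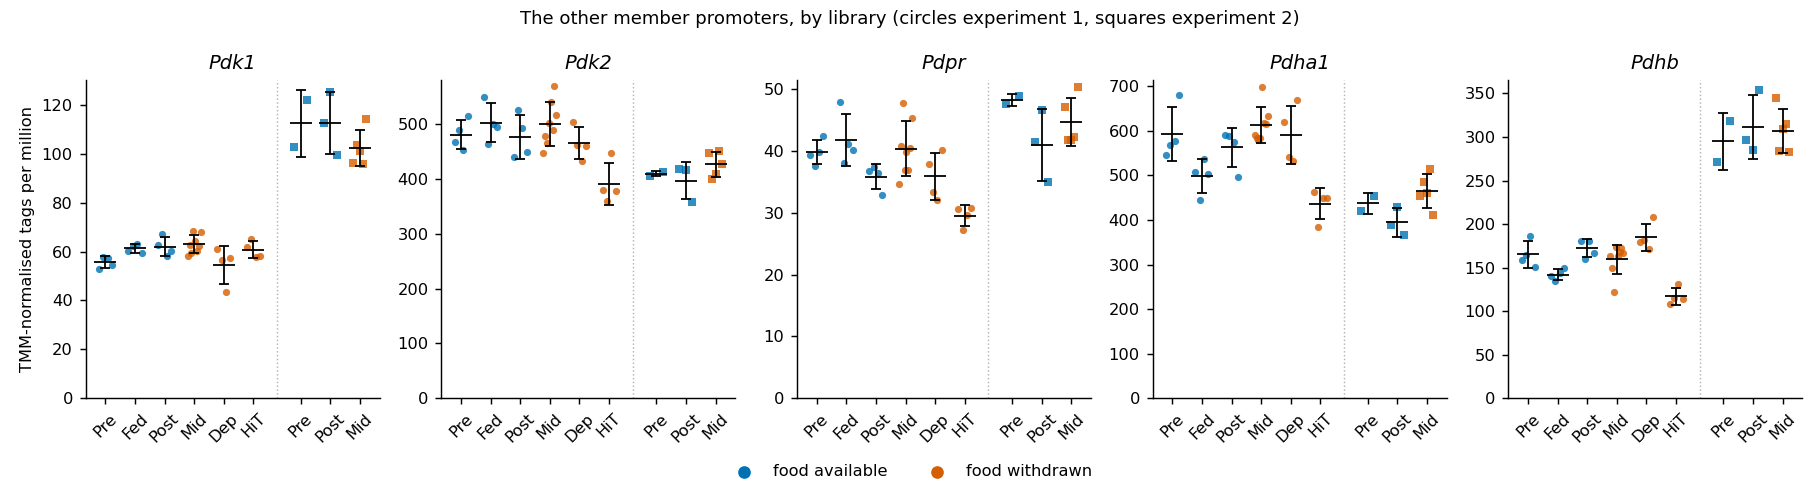
Levels of *Pdk1*, *Pdk2*, *Pdpr*, *Pdha1* and *Pdhb* in every library, in TMM-normalised TPM from 0, by group, with circles for experiment #1 and squares for experiment #2, and bars for the mean and SD. Colors give food as in the methods of the study. The HiT group is the lowest of experiment #1 in the last 4 of these genes, as in *Pdha1* at 385 to 463, and not in *Pdk1*.

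Counted over all members, 4 of 8 promoters passed from Pre to Mid (*Pdk1*, *Pdk4* and *Pdp2* up and *Pdp1* down), against 30.2% of all clusters. DESeq2 called 4 there, and the likelihood ratio test called 3, without *Pdk1* (adjusted p = 0.0665). From Mid to Post 3 passed (*Pdp1* up, *Pdk4* and *Pdp2* down), against 35% of all. From Fed to Mid 4 passed (*Pdk4*, *Pdp2* and *Pdha1* up and *Pdp1* down), against 35.2%, and from HiT to Mid 6 passed (5 up and 1 down), against 41%. From Dep to Mid, both fasted and the former kept from torpor by touching, no member passed in the quasi-likelihood test, the likelihood ratio test or DESeq2, 3 had an unadjusted p under 0.05, and 2.03% of all clusters were called. With so few members, these shares are not read as different from the background.

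**Figure D4:**
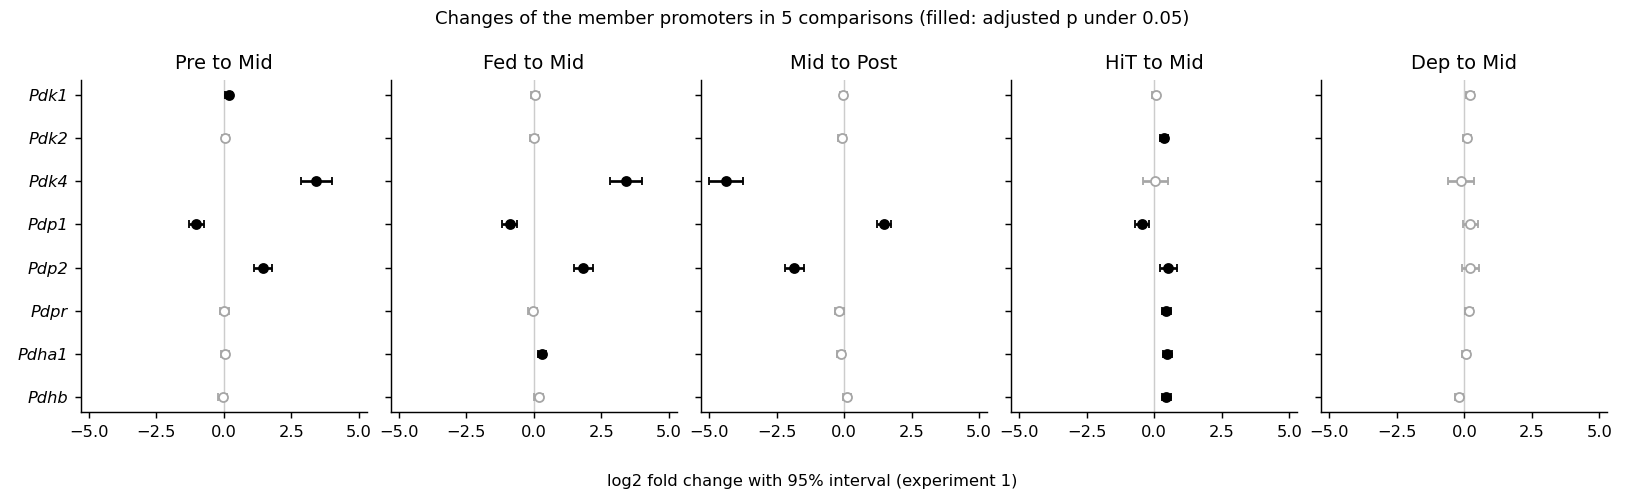
Log2 fold changes of the 8 member promoters with 95% intervals in 5 comparisons of experiment #1, where A to B is B minus A and filled points passed an adjusted p of 0.05. *Pdk4* is at 3.42, 3.41 and -4.37 in the first 3 panels and at 0.05 and -0.12 in the last 2, and no member passed from Dep to Mid.

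In the remaining comparisons of experiment #1, 7 members passed from Pre to HiT (2 up and 5 down, against 33.4% of all clusters), 3 from Pre to Dep (25.8%), 6 from Fed to HiT (43.2%), 5 from HiT to Dep (26.5%) and 5 from Fed to Dep (38.6%). From Post to HiT, Post to Dep and Post to Fed, 7, 3 and 3 passed (29.2%, 24.6% and 22.2%). None passed from Pre to Post or from Pre to Fed in the quasi-likelihood test, where 1.85% and 11.2% of all clusters did. In these, 3 and 2 members had an unadjusted p under 0.05, DESeq2 called 1 in each, and the likelihood ratio test called 1 and none. In experiment #2, 3 members passed from Pre to Mid (9.74% of all clusters) and 3 from Mid to Post (16.4%), which were *Pdk4*, *Pdp1* and *Pdp2* in both, and only *Pdk4* passed from Pre to Post (0.111%). In the quasi-likelihood test no member and none of the 10819 clusters (0%) passed for a difference between experiments in the change from Pre to Mid or from Mid to Post, where 605 and 704 clusters, and 1 and 0 members, had an unadjusted p under 0.05.

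The annotated promoters of other genes whose levels followed *Pdk4* most closely over the 28 libraries of experiment #1 were those of *Pank1*, an enzyme of coenzyme A synthesis (Pearson r = 0.98), *Ucp3*, a mitochondrial uncoupling protein (0.98), *Slc25a34*, a mitochondrial carrier (0.97), *Tacc2* (0.97) and *Nceh1*, a cholesterol ester hydrolase (0.97). Over the 10 libraries of experiment #2 their r with *Pdk4* was 0.99, 0.99, 0.97, 0.98 and 0.92. Among the most opposite were *Smtn* and *Prrx1* (-0.96 each, and -0.99 and -0.94 in experiment #2). Within the member set, *Pdp2* ranked 31st of 10776 clusters in likeness (0.94) and *Pdp1* had an r of -0.88, whereas the r of *Pdk1*, *Pdk2*, *Pdpr*, *Pdha1* and *Pdhb* lay between -0.24 and 0.04. Over the 10 libraries of experiment #2, the r of these was -0.49, 0.57, 0.27, 0.68 and 0.03, so that it differed widely between the experiments. These values describe levels that fall into fed and fasted libraries, and share libraries and depth.

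The Mid group was not uniform in these promoters. In Mid 6, *Pdk4* was at 1717 TPM against 4640.2 to 5944 in the other 7 Mid libraries, and *Pdp2* was at 12.4 against 20.7 to 25.9. *Pdp1*, at 20.8, and the other members were within the range of the other Mid libraries. *Ucp3* was at 34.0 in Mid 6 against 56.03 to 113 in the others, and *Pank1* at 26.9 against 48.6 to 63.6. Both genes were chosen for their likeness to *Pdk4* over libraries that include Mid 6. Their low values there are thus no separate evidence. Without Mid 6 the log2 fold change of *Pdk4* from Pre to Mid was 3.56 in place of 3.42.

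Of 12 genes for the remaining subunits, pyruvate transport and cofactors of the complex, 8 had a cluster. From Pre to Mid none of the 8 rose and 1 fell, where 30.2% of all clusters passed. Not passing the test were, among others, the mitochondrial pyruvate carrier subunit *Mpc2* (-0.14 ± 0.07, adjusted p = 0.137) and the lipoate synthase *Lias* (-0.11 ± 0.08, adjusted p = 0.329). Their median log2 fold change was -0.07, against 0.01 over all clusters. From HiT to Mid, 5 of the 8 rose and none fell, where 41% of all clusters passed. First were *Mpc2* (0.40 ± 0.07, adjusted p = 9.26e-05), the E2 subunit *Dlat* (0.27 ± 0.06, adjusted p = 0.00132) and *Mpc1* (0.43 ± 0.10, adjusted p = 0.00196). The median was 0.29 against 0.02. Counts in this and the following gene lists are not read as different from the background.

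Among 7 genes of the sister complexes for branched-chain and 2-oxoglutarate oxidation, 1 rose and 1 fell from Pre to Mid, where 30.2% of all clusters passed. *Dbt*, the E2 subunit of the branched-chain complex, rose by 0.52 ± 0.10 (adjusted p = 4.53e-04), and *Bckdk*, the kinase that switches this complex off, fell by 0.29 ± 0.09 (adjusted p = 0.0196). *Bckdha*, its E1α subunit, had 0.17 ± 0.08 (adjusted p = 0.108). In experiment #2 *Dbt* (0.68 ± 0.18, adjusted p = 0.0365) and *Bckdha* (0.53 ± 0.13, adjusted p = 0.0278) rose, and *Bckdk* had 0.02 ± 0.11 (adjusted p = 0.927).

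Of 11 other enzymes that make or use pyruvate or acetyl-CoA, none rose and 3 fell from Pre to Mid, where 30.2% of all clusters passed. Their median log2 fold change was -0.14, against 0.01 over all clusters. *Acly*, which makes cytosolic acetyl-CoA, fell by 2.03 ± 0.20 (adjusted p = 1.05e-07), malic enzyme *Me1* by 0.89 ± 0.18 (adjusted p = 5.41e-04) and lactate dehydrogenase *Ldha* by 0.40 ± 0.11 (adjusted p = 0.00895). *Acly* was at 43.5 ± 10.7 TPM in Pre (SD, n = 4), 10.7 ± 1.81 in Mid (n = 8) and 47.1 ± 18.2 in Post (n = 4), and its change from Pre to Mid in experiment #2 was -1.75 ± 0.30 (adjusted p = 0.00562). *Me1* (-0.63 ± 0.19, adjusted p = 0.0593) and *Ldha* (-0.42 ± 0.16, adjusted p = 0.126) did not pass in experiment #2.

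Of 16 transcription regulators linked to *Pdk* genes or to the fasting response, 13 had a cluster. From Pre to Mid 6 rose and 4 fell, where 30.2% of all clusters passed, and their median was 0.29, against 0.01 over all clusters. The smallest adjusted p-values were those of *Ppara*, a fatty acid receptor (1.36 ± 0.13, adjusted p = 5.96e-08), the coactivator *Ppargc1a* (4.78 ± 0.67, adjusted p = 7.07e-06) and *Foxo3* (1.1002 ± 0.17, adjusted p = 2.29e-05). In experiment #2 these were 0.97 ± 0.15, 3.60 ± 0.58 and 1.08 ± 0.24 (adjusted p = 0.00415, 0.00471 and 0.0185). Unlike *Pdk4*, *Ppara* passed the test from HiT to Mid. It was at 70.7 ± 11.4 TPM in Mid (SD, n = 8) and 77.6 ± 16.7 in Dep, but at 31.2 ± 1.94 in HiT and 27.6 ± 3.67 in Pre (n = 4 each), and rose by 1.18 ± 0.13 from HiT to Mid (adjusted p = 7.81e-08). *Ppargc1a* was at 6.92 ± 7.73 in Pre, 190.0 ± 119 in Mid, 34.7 ± 10.8 in HiT and 212 ± 42.4 in Dep. *Foxo3*, like *Pdk4*, rose from Pre to HiT (0.78 ± 0.19, adjusted p = 0.00207) and did not pass from HiT to Mid (0.32 ± 0.16, adjusted p = 0.111). Its levels were 22.5 ± 2.49 in Pre, 48.2 ± 10.2 in Mid, 38.5 ± 2.27 in HiT and 51.5 ± 11.7 in Dep. The other FOXO genes with a cluster, *Foxo1* and *Foxo4*, did not share this pattern. From Pre to HiT they had -0.12 ± 0.22 and -0.18 ± 0.11 (adjusted p = 0.712 and 0.194). From HiT to Mid they rose by 1.26 ± 0.20 and 0.47 ± 0.09 (adjusted p = 1.60e-05 and 2.25e-04).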

How the data were processed

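After trimming, the authors aligned reads to mm10 using BWA and HISAT2 (versions not given in the sources used here) and built clusters of tag starts with PromoterPipeline. They deposited counts of tags per cluster and library, without normalization, which the file header calls rescued tag counts, and the same counts as TPM, with tags outside the clusters in the total. Clusters were assigned to the nearest GENCODE M21 5′ end on the same strand within 500 bp. Counts were tested with edgeR 4.0.16 in R 4.3.3 (TMM, quasi-likelihood F test, Benjamini-Hochberg over all clusters, threshold 0.05), in 1 fit of the 28 libraries of experiment #1 over 10776 clusters with any tag and in 1 fit of the 10 libraries of experiment #2 over 10816. The difference between experiments was tested in 1 fit of their Pre, Mid and Post libraries. A to B is B minus A, and 95% intervals are from the standard error by the normal quantile. How tags of several positions were rescued is not given in the sources used here, and can move tags between similar sequences.

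The members and the gene lists were chosen with earlier results of these data known. The genes named are the members, the 3 list genes with the smallest adjusted p, and the 5 annotated promoters most like and the 3 most opposite to *Pdk4* by Pearson's r of log2 levels with a pseudocount of 0.1. Some genes that this rule selects are not reported here. Genes named beyond the 3 in a list, levels of list genes and motif matches were chosen after their values were seen. Replicate numbers were not treated as pairing the mice. Of 60 same-numbered pairs of libraries, 20 deviated together with r over 0.1, and r ran from -0.41 to 0.50. The median r was -0.01, against 0.01 for libraries with other numbers. These values cannot show whether some libraries shared a block. The labels name no separate litters or cages, so p-values measure the spread between these libraries. Scripts were tested on simulated counts. Alternatives were the likelihood ratio test, DESeq2 1.42.0, other scalings, filterByExpr, fits of the compared groups, a replicate block, all 38 libraries, lane as a term and each library left out.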

Additional observations from a re-analysis of the deposited data

Results flagged for a closer look

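In groups of 4 to 10 libraries, the gap of the lowest or highest library to its nearest neighbour was compared with the range of the group at the 95% critical value of Dixon's test. Of 56 groups of a member promoter, 6 passed, and chance gives about 1 in 20. Mid 6 was far below the other Mid libraries in *Pdk4* (1717 TPM, with 4640.2 the nearest) and in *Pdp2* (12.4, with 20.7 the nearest). Pre 3 was above the other Pre libraries in *Pdp1* (42.2, with 35.7 the nearest). Mid 5 was above the other Mid libraries in *Pdha1* (698, with 634 the nearest), HiT 2 was below the other HiT libraries in *Pdha1* (385, with 449 the nearest), and Mid 3 was below the other Mid libraries in *Pdhb* (122, with 150.1 the nearest). Leaving out Mid 6, Mid 5 or Mid 3 changed no call of *Pdk4*, *Pdp1* or *Pdp2*, and without Mid 3 *Pdhb* was called from Fed to Mid (0.22, adjusted p = 0.0106).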

How the results depend on the processing

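Of 2552 recomputed member fold changes, 2457 kept their direction and side of the threshold, 66 lost and 29 gained a call, and none reversed. All 189 recomputed changes of *Pdk4*, *Pdp1* and *Pdp2* from Pre to Mid, Mid to Post and Fed to Mid in experiment #1 kept their call. *Pdk4* from Pre to Post in experiment #1 was called under the likelihood ratio test (-0.949), DESeq2 (-0.949), the compared groups only (-0.929), the replicate block (-0.952) and all 38 libraries with experiment as a term (-1.10). In experiment #2 that change was not called with the compared groups only (-1.37), with lane as a term (-1.59), or without any of its 5 libraries (lowest -1.45, highest -1.28). The cause was not tested. With the replicate block the calls of *Pdk1* from Pre to Mid (0.161, adjusted p = 0.147), *Pdp1* from HiT to Mid (-0.348, adjusted p = 0.0925), *Pdha1* from Fed to Mid (0.233, adjusted p = 0.0622) and *Pdhb* from Post to Fed (-0.279, adjusted p = 0.0504) were lost. That of *Pdk1* was also lost under the likelihood ratio test (0.180), upper-quartile scaling (0.109) and library size only (0.101). It was lost too with the compared groups only (0.157) and all 38 libraries (0.053). Under scaling by library size only, the median log2 fold change of all clusters was 0.113 from HiT to Mid in place of 0.0176, -0.133 from Pre to HiT in place of 0.0413, -0.225 from Fed to Dep in place of -0.00426 and 0.137 from Post to Fed in place of 0.0342, and this scaling lost 13 member calls, among them *Pdp1* from HiT to Mid (-0.345, adjusted p = 0.119) and *Pdha1* from Fed to Mid (0.172, adjusted p = 0.426), and *Pdk4* from Post to Fed (1.08, adjusted p = 0.0541). As deposited TPM, 52 of 72 group levels moved by less than 1 SD, and the ratio to the normalised level was 0.881 to 1.05. Summing clusters by gene gave no separate value, since each member had 1 cluster. Counting error matters most for *Pdp2*, with as few as 56 tags per library.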

Other observations

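The table held 7 further clusters inside the *Pdk4* gene on its strand, more than 500 bp from an annotated 5′ end, and 1 inside *Pdha1*. The strongest in *Pdk4*, at chr6:5483969-5485600 in exon 11 in the untranslated region, was at 10.9996 TPM in Pre, 131 in Mid and 6.67 in Post by group mean. Its log2 fold change was 3.58 ± 0.35 from Pre to Mid (adjusted p = 8.53e-08) and -4.30 ± 0.37 from Mid to Post (adjusted p = 5.46e-09). Of the other 6, 5 had their peak in an exon and 1 in an intron, and all 7 rose from Pre to Mid, by 2.46 to 3.58. Their sum was 3.27% of the level of the *Pdk4* promoter in Pre, 3.46% in Mid, 3.70% in Post, 4.002% in HiT, 3.38% in Fed and 3.97% in Dep. The cluster in the last exon of *Pdha1* changed by 0.28 ± 0.30 from Pre to Mid (adjusted p = 0.511). These clusters were looked at after the promoters had been described.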
